A study of Mus musculus with 4 samples.

Results

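The endothelial cell genes examined here are 40 genes that mark the cells lining blood and lymph vessels, named one by one and matched by symbol, out of 43432 gene IDs counted in 4 mouse tumours. They fall into 29 pan-endothelial genes, 6 genes grouped here as tip or arterial (Aplnr, Esm1, Dll4, Hey1, Gja5 and Sox17), 3 genes of activated endothelium (Sele, Selp and Vcam1) and 2 lymphatic genes (Flt4 and Prox1). The tumours were subcutaneous 9464D-GD2 neuroblastomas, a mouse neuroblastoma line carrying the ganglioside GD2, grown in female C57BL/6 mice. Tumours 3 and 4 of the sEV group came from mice given 25 µg of dinutuximab, an antibody to GD2, together with 20 µg of small extracellular vesicles (sEVs) released by 9464D-GD2 cells. Tumours 3 and 4 of the dinutuximab group came from mice given the same 25 µg of dinutuximab alone. Both groups were dosed 2 times per week for 5 treatments, so every tumour had been exposed to the antibody, no untreated tumour is part of the comparison, and age was not given. All tumours came from 1 cell line, and the vesicles came from that line too.

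Endothelial cells build new vessels when vascular endothelial growth factors bind the receptors Kdr and Flt1, while the angiopoietins acting through Tek set how stable the vessel wall is. In a growing sprout, the leading tip cells make Dll4 and Esm1, and Notch signalling from Dll4 holds the cells behind them back. Activated endothelium shows selectins and Vcam1, which catch passing white blood cells, and lymphatic endothelium is set by the transcription factor Prox1 together with the receptor Flt4.

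RefSeq promoters on GRCm38.p6 were matched for 21 of the 40 genes. The 250 bases before the start site are shown for 5 of them, chosen because their values separate the groups in opposite directions: Esm1, Flt1 and Dll4 lay lower in both sEV tumours, and Cd34 and Calcrl lay higher. Each line runs 5′ to 3′ on the strand of the gene, and capitals mark GGAA, the core letters bound by ETS factors such as Erg and Fli1, or its reverse complement TTCC.
Esm1 promoter, chr13:113209409-113209658, plus strand: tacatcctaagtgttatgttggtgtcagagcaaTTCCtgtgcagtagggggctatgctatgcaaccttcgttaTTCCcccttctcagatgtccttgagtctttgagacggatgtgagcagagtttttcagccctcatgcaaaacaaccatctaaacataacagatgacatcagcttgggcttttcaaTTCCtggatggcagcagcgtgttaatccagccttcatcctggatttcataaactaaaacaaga
Flt1 promoter, chr5:147726012-147726261, minus strand: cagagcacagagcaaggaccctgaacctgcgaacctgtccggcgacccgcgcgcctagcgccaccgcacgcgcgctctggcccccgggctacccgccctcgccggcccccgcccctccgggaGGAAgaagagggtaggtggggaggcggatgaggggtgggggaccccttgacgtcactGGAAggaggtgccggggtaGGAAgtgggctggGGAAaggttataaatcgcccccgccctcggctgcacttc
Dll4 promoter, chr2:119325534-119325783, plus strand: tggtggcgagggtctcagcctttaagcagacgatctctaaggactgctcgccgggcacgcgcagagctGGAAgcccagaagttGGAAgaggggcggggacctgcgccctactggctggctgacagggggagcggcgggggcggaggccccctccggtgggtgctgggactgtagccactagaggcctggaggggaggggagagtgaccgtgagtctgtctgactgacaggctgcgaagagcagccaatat
Cd34 promoter, chr1:194938571-194938820, plus strand: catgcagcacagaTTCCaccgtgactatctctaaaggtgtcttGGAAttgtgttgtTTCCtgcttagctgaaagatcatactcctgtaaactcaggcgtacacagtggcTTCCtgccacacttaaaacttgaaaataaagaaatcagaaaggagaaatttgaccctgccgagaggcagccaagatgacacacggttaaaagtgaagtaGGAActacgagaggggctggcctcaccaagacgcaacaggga
Calcrl promoter, chr2:84425267-84425516, minus strand: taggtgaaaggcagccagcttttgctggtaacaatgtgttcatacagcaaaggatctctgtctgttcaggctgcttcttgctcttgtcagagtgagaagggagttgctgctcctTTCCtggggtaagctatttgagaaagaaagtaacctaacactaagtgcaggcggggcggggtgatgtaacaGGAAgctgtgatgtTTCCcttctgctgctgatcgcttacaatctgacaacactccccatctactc
Over all 21 matched genes, 19 held GGAA on either strand in these 250 bases, or 90.5%, against 93.5% of the 32851 promoter windows of that length in the table. For Gja5 the RefSeq start site used lay 127709 bases from the gene start in the GENCODE annotation, and for Egfl7 1069 bases. Their windows may therefore not be the main promoters. The longer ETS letters CAGGAAG, each of which contains a GGAA, stood in 6 of the 21, or 28.6%, against 10.8% of all windows. Those 6 were Emcn, Egfl7, Robo4, Cd34, Calcrl and Sele. The SOX letters ACAAT stood in 6, or 28.6%, against 27.7% of all windows, and the GATA letters GATAA in 1, Sele, or 4.76%, against 22.6%. All motifs were searched on both strands and as letters only. Of the 6, Emcn and Robo4 lay lower in both sEV tumours, Cd34 and Calcrl lay higher, Egfl7 overlapped and Sele was not tested. Erg and Fli1 mRNA themselves are described with the transcription factors.

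The gene Egfl7 also carries the endothelial microRNA miR-126, shown here because its level could not be read from these libraries, in which the precursor gene had 0 counts. Its mature strand from RefSeq, at chr2:26591402-26591423 on the plus strand of GRCm38.p6, is printed with the seed, bases 2 to 8, in capitals.
mmu-miR-126a-3p: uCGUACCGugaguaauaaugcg

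Libraries held between 24452699 and 28187573 counts, and between 18818 and 19164 genes had at least 1 count. Levels are CPM, counts relative to a library size scaled by TMM, and fold changes are log2 of the sEV group over the dinutuximab group with the standard error (SE) of edgeR's quasi-likelihood fit. A gene is called when its Benjamini-Hochberg adjusted p over all 13823 genes tested is under 0.05. By that rule 0.0% of all genes were called higher and 0.0% lower, the smallest adjusted p being 0.360. At an unadjusted p under 0.05, edgeR put 341 genes higher (2.47%) and 429 lower (3.1%). With the same filter and threshold, DESeq2 called 17 higher and 38 lower and limma-voom 0 and 0. With 2 tumours a group, no exact permutation test could give a p below 0.333, and in 77.8% of all genes a pair of tumours of one group differed by more than the group means did. As a check of the tissue, the neuroblastoma marker Dbh, which makes noradrenaline, had 0 counts in all 4 tumours, while Hand2, a transcription factor of the sympathetic lineage, had 164 and 172 CPM in sEV tumours and 154 and 145 CPM in dinutuximab tumours.

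Endothelial transcripts were present in all 4 tumours, and 29 of the 36 members tested had a negative fold change, but none was called, and 1 dinutuximab tumour stood above the other 3. Gja5, Sele, Selp and Prox1 had too few counts to be tested. The 36 fold changes ran between -0.85 and 0.63 with a median of -0.36, against a median of 0.0015 over all genes, of which 49.7% were negative. In 16 members both sEV tumours lay below both dinutuximab tumours, where 16.5% of all genes did so, and in 2 members, Cd34 and Calcrl, both lay above, where 18.1% of all genes did. In the other 18 the groups overlapped, so 18 of 36 were separate in either direction, against 34.6% of all genes. Tumour tissue mixes many cell types, so fewer endothelial cells and less of these mRNAs per cell cannot be told apart.

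Dinutuximab tumour 4 had the highest level in 26 of the 36 tested members and the lowest in 0, whereas over all genes it was highest in 27.0% and lowest in 26.5%. It exceeded dinutuximab tumour 3 in 31 of the 36, against 51.6% of all genes. The geometric mean of 6 defining markers (Pecam1, Cdh5, Tie1, Kdr, Cldn5 and Emcn) was 8.89 and 8.66 CPM in the sEV tumours, against 9.80 and 13.5 CPM in the dinutuximab tumours. Dinutuximab tumour 4 thus stood 1.38 to 1.56 times above each of the other 3, which lay close to each other. The mean of log2(CPM + 1) over the 29 pan-endothelial genes was 2.99 and 3.01 in the sEV tumours and 3.04 and 3.35 in the dinutuximab tumours. Without dinutuximab tumour 4 the median fold change of the tested members was -0.12, against -0.36 with it. Without dinutuximab tumour 3 it was -0.51. Fold changes nearer to 0 without dinutuximab tumour 4 included those of Cldn5 (-0.01), Esam (-0.09), Vwf (-0.17) and Robo4 (-0.22).

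**Figure D1:**
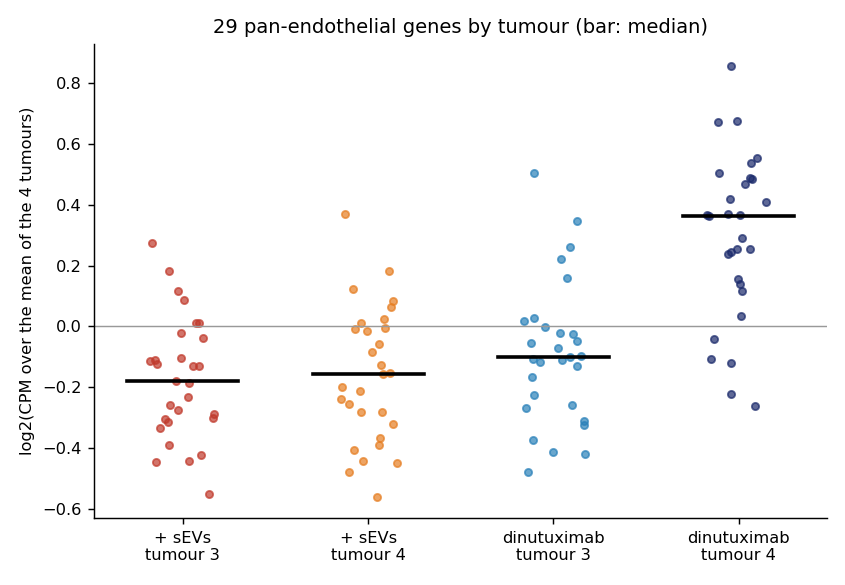
Log2 of each pan-endothelial gene's CPM over its mean in the 4 tumours, by tumour, with the sEV tumours on the left and the dinutuximab tumours on the right. The medians are -0.18 and -0.16 in the sEV tumours and -0.10 and 0.36 in the dinutuximab tumours, with dinutuximab tumour 4 above the other 3.

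Summed over all 40 members, endothelial mRNA made up 0.0414% and 0.0437% of the sEV libraries and 0.0442% and 0.050% of the dinutuximab libraries. Most of it was pan-endothelial, at 386 and 383 CPM in sEV tumours and 412 and 455 CPM in dinutuximab tumours. The tip or arterial genes summed to 19.3 and 18.1 CPM in sEV tumours and 31.3 and 29.5 CPM in dinutuximab tumours, with both dinutuximab tumours above both sEV tumours. The activated genes summed to 6.99 and 23.7 CPM in sEV tumours and 7.28 and 12.4 CPM in dinutuximab tumours, and the lymphatic genes to 1.34 and 2.01 CPM against 1.87 and 2.95 CPM.

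**Figure D2:**
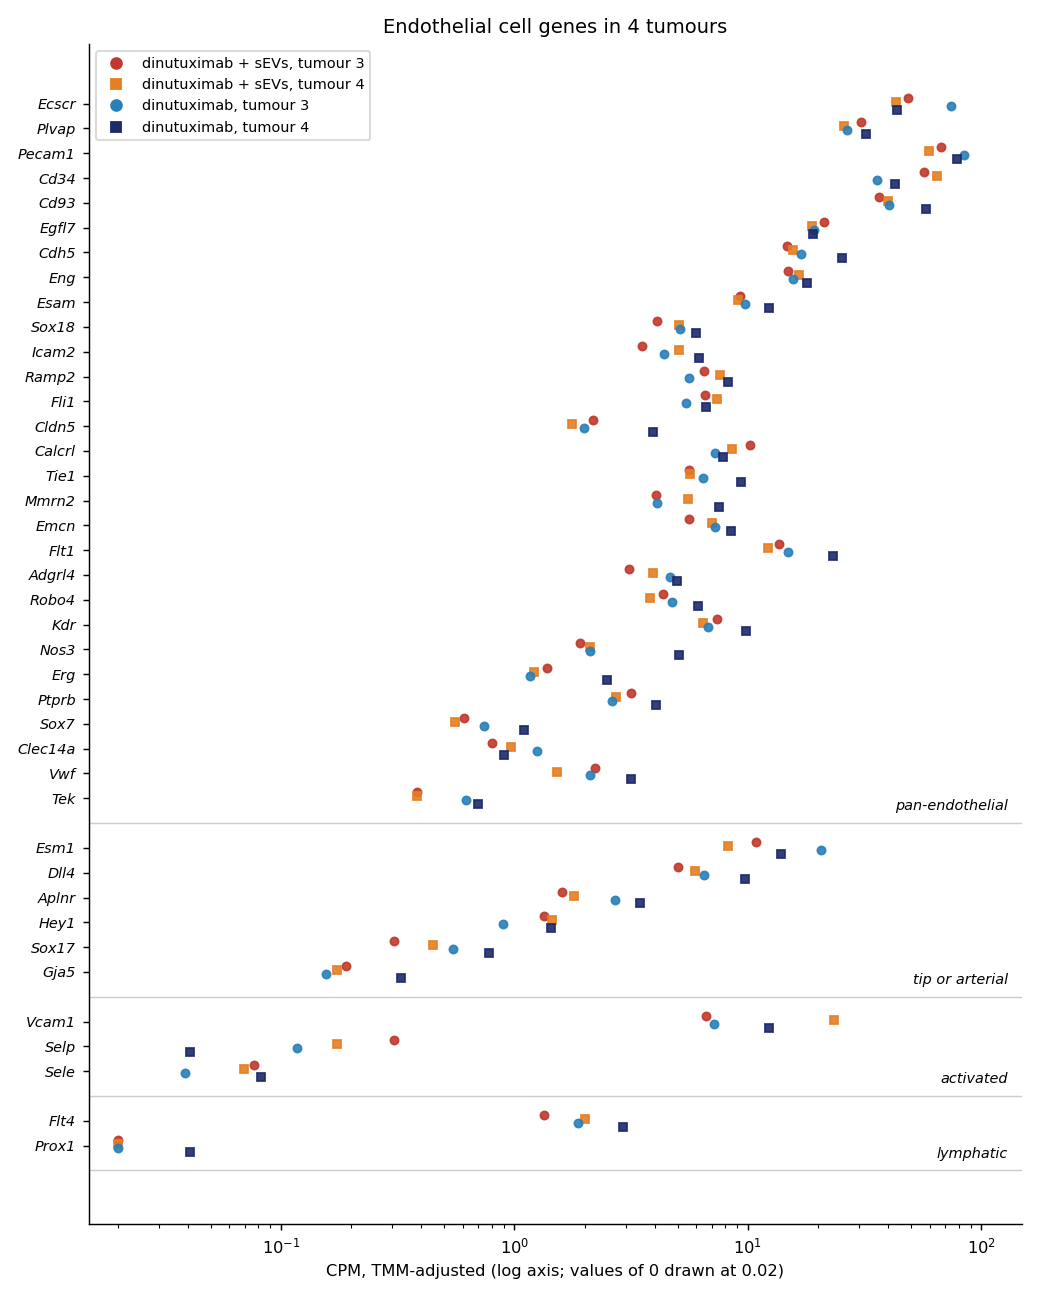
Level of every endothelial gene in each tumour, in CPM on a log axis, with the sEV tumours and the dinutuximab tumours as separate points and counts of 0 drawn at the left edge. Levels span from under 1 CPM for genes such as Prox1, Sele and Selp to above 40 CPM in every tumour for Ecscr and Pecam1.

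Other settings called a few members. Without the filter on low counts edgeR called Cd34 higher and Esm1 lower, where 0.486% of all genes were called higher and 0.704% lower. That fit drew each gene's spread wholly from a trend over all genes. With the tumour number as a replicate block it called Cd34, where 0.152% of genes were called higher and 0.333% lower. Without sEV tumour 3 it called Vcam1 higher and Esm1 lower, where 0.338% of genes were called higher and 0.592% lower. Without sEV tumour 4 it called 0 members, where 1.13% were called higher and 1.1% lower, and DESeq2 called 0 members, where 0.123% were called higher and 0.275% lower.

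Of the genes that hold endothelial cells to one another, Pecam1, an adhesion molecule at endothelial junctions also carried by platelets and leukocytes, had 67.0 and 59.6 CPM in sEV tumours and 84.4 and 78.5 CPM in dinutuximab tumours. The groups did not overlap, and the log2 fold change was -0.36 ± 0.13 (SE, adjusted p = 0.804). Cdh5, the cadherin of endothelial junctions, had 14.7 and 15.6 CPM in sEV tumours and 16.8 and 25.3 CPM in dinutuximab tumours (log2 fold change -0.48 ± 0.21, adjusted p = 0.885). Its distance between the groups came mostly from dinutuximab tumour 4, and without that tumour it was -0.15. Cldn5, a tight-junction claudin, had 2.18 and 1.77 CPM in sEV tumours and 1.99 and 3.93 CPM in dinutuximab tumours. Its groups overlapped, with dinutuximab tumour 4 alone standing high. Esam, another junctional adhesion molecule, had 9.28 and 9.08 CPM in sEV tumours and 9.74 and 12.4 CPM in dinutuximab tumours. Icam2 overlapped, at 3.51 and 5.06 CPM in sEV tumours and 4.36 and 6.18 CPM in dinutuximab tumours.

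Among the growth factor receptors, Flt1, which binds Vegfa and limits its access to Kdr, had 13.6 and 12.2 CPM in sEV tumours and 14.9 and 23.2 CPM in dinutuximab tumours. The groups were separate, with a log2 fold change of -0.56 ± 0.23 (adjusted p = 0.859), and of -0.21 without dinutuximab tumour 4. Kdr, the main signalling receptor for Vegfa, overlapped at 7.41 and 6.44 CPM in sEV tumours and 6.78 and 9.78 CPM in dinutuximab tumours. Its fold change was -0.26 ± 0.25 and turned to 0.03 without dinutuximab tumour 4. Tek, the angiopoietin receptor, was scarce, at 0.382 and 0.381 CPM in sEV tumours and 0.623 and 0.696 CPM in dinutuximab tumours, which is between 10 and 17 counts a library. Tie1, its partner receptor, had 5.57 and 5.65 CPM in sEV tumours and 6.43 and 9.33 CPM in dinutuximab tumours (log2 fold change -0.49 ± 0.26, adjusted p = 0.887), and -0.20 without dinutuximab tumour 4. Ptprb, the phosphatase that removes phosphate from Tek, overlapped at 3.17 and 2.74 CPM in sEV tumours and 2.61 and 4.05 CPM in dinutuximab tumours. Eng, a co-receptor for TGF-β family ligands, also overlapped, at 14.8 and 16.5 CPM in sEV tumours and 15.7 and 17.8 CPM in dinutuximab tumours. Robo4, a receptor that steadies vessels, was separate, at 4.35 and 3.81 CPM in sEV tumours and 4.75 and 6.14 CPM in dinutuximab tumours.

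The receptor Calcrl, which with Ramp2 forms the adrenomedullin receptor, ran the other way. It had 10.2 and 8.52 CPM in sEV tumours and 7.24 and 7.86 CPM in dinutuximab tumours, without overlap and with a log2 fold change of 0.31 ± 0.21 (adjusted p = 0.909), and of 0.17 without sEV tumour 3. Its partner Ramp2 overlapped, at 6.49 and 7.59 CPM in sEV tumours and 5.57 and 8.23 CPM in dinutuximab tumours. The annotated span of Ramp2 overlaps that of its same-strand neighbour Vps25, so its counts are uncertain. Whether their exons overlap was not examined.

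Cd34 had the lowest adjusted p of the 36 tested members. This sialomucin of capillary endothelium is also made by blood progenitors and by some stromal fibroblasts. It had 56.8 and 64.7 CPM in sEV tumours and 35.9 and 42.9 CPM in dinutuximab tumours, without overlap. The mean was 60.8 ± 5.64 CPM in sEV tumours and 39.4 ± 4.93 CPM in dinutuximab tumours (SD, n = 2 each), 1.54-fold apart. The log2 fold change was 0.63 ± 0.15, with a 95% interval of 0.28 to 0.97 and an adjusted p of 0.535, so Cd34 was not called. Leaving out each tumour in turn kept it between 0.50 and 0.76. Without the filter on low counts edgeR's adjusted p for Cd34 was 0.0187, in a fit that drew each gene's spread wholly from a trend over all genes. The annotation places Cd34 at chr1:194938819-194961279 on the plus strand of GRCm38, where the antisense gene Gm16897 overlaps it.

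Cd34 was measured beside genes of other cells that can make it. The 10 fibroblast markers summed to 906 and 764 CPM in sEV tumours and 640 and 638 CPM in dinutuximab tumours, with 5 of 10 fold changes negative. Dpt, an extracellular matrix protein of fibroblasts, had 12.5 and 16.7 CPM in sEV tumours and 3.97 and 9.53 CPM in dinutuximab tumours. Dcn, a matrix proteoglycan, had 482 and 288 CPM in sEV tumours and 268 and 261 CPM in dinutuximab tumours. Pdgfra, a fibroblast receptor, had 38.6 and 31.8 CPM in sEV tumours and 26.9 and 31.1 CPM in dinutuximab tumours. These 3 genes and the sum were higher in both sEV tumours, as was Cd34, whereas the markers Col1a1, Col1a2 and Thy1 were lower in both. The part of fibroblasts in the Cd34 difference was not tested.

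Of the pan-endothelial transcription factors, the ETS factors Erg and Fli1 overlapped between the groups. Erg had 1.37 and 1.21 CPM in sEV tumours and 1.17 and 2.50 CPM in dinutuximab tumours, and Fli1, which blood cells also make, had 6.53 and 7.34 CPM against 5.41 and 6.63 CPM. The SOXF factors, which act in vessel formation, lay lower in both sEV tumours. Sox18 had 4.08 and 5.06 CPM in sEV tumours and 5.14 and 6.02 CPM in dinutuximab tumours, so its groups were separated by very little. Sox7 had 0.611 and 0.554 CPM in sEV tumours and 0.740 and 1.10 CPM in dinutuximab tumours (log2 fold change -0.66 ± 0.44).

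Among secreted and surface proteins, Plvap, which forms the diaphragms of endothelial fenestrae, overlapped at 30.5 and 25.8 CPM in sEV tumours and 26.6 and 32.0 CPM in dinutuximab tumours. Egfl7, a secreted vessel-guiding protein, overlapped too, at 21.3 and 18.8 CPM in sEV tumours and 19.3 and 19.0 CPM in dinutuximab tumours. These tumours differed in Egfl7 by little on either side, and its log2 fold change was 0.06 ± 0.16. Vwf, the clotting glycoprotein stored in endothelial granules, had 2.21 and 1.52 CPM in sEV tumours and 2.10 and 3.15 CPM in dinutuximab tumours. Nos3, the endothelial nitric oxide synthase, had 1.91 and 2.11 CPM in sEV tumours and 2.10 and 5.07 CPM in dinutuximab tumours. Its log2 fold change of -0.83 ± 0.43 rested on dinutuximab tumour 4 and was -0.07 without it. Cd93, a lectin-like receptor also found on myeloid cells, had 36.5 and 39.9 CPM in sEV tumours and 40.2 and 57.8 CPM in dinutuximab tumours (log2 fold change -0.36 ± 0.19), and -0.08 without that tumour. Mmrn2, its matrix ligand, overlapped at 4.05 and 5.54 CPM in sEV tumours and 4.09 and 7.53 CPM in dinutuximab tumours. Emcn, a sialomucin, had 5.61 and 7.03 CPM in sEV tumours and 7.21 and 8.43 CPM in dinutuximab tumours, and Adgrl4, an adhesion receptor of vessels, had 3.09 and 3.91 CPM against 4.63 and 4.95 CPM. Both were separate. Clec14a, a lectin-like tumour vessel protein, overlapped at 0.802 and 0.970 CPM in sEV tumours and 1.25 and 0.90 CPM in dinutuximab tumours. Counts of Eng, Plvap, Egfl7 and Nos3 are uncertain where an antisense neighbour overlaps (Fpgs, Gtpbp3, Agpat2 and Atg9b), since the strand setting of the counting is not given in the sources used here.

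Ecscr, a surface regulator of endothelial migration, had 48.4 and 43.1 CPM in sEV tumours and 74.4 and 43.7 CPM in dinutuximab tumours. Here dinutuximab tumour 3 was the highest, as it also was in Pecam1, Esm1 and Clec14a, and without it the log2 fold change was 0.07, against -0.37 ± 0.23 with it. Per kilobase of exon Ecscr was also the most abundant member, at 29.9 CPM per kb on average. Plvap followed at 14.5 CPM per kb and Pecam1 at 11.6 CPM per kb, while Cdh5 had 4.31 CPM per kb and Kdr 0.842 CPM per kb. The antisense gene 1700066B19Rik overlaps Ecscr.

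**Figure D3:**
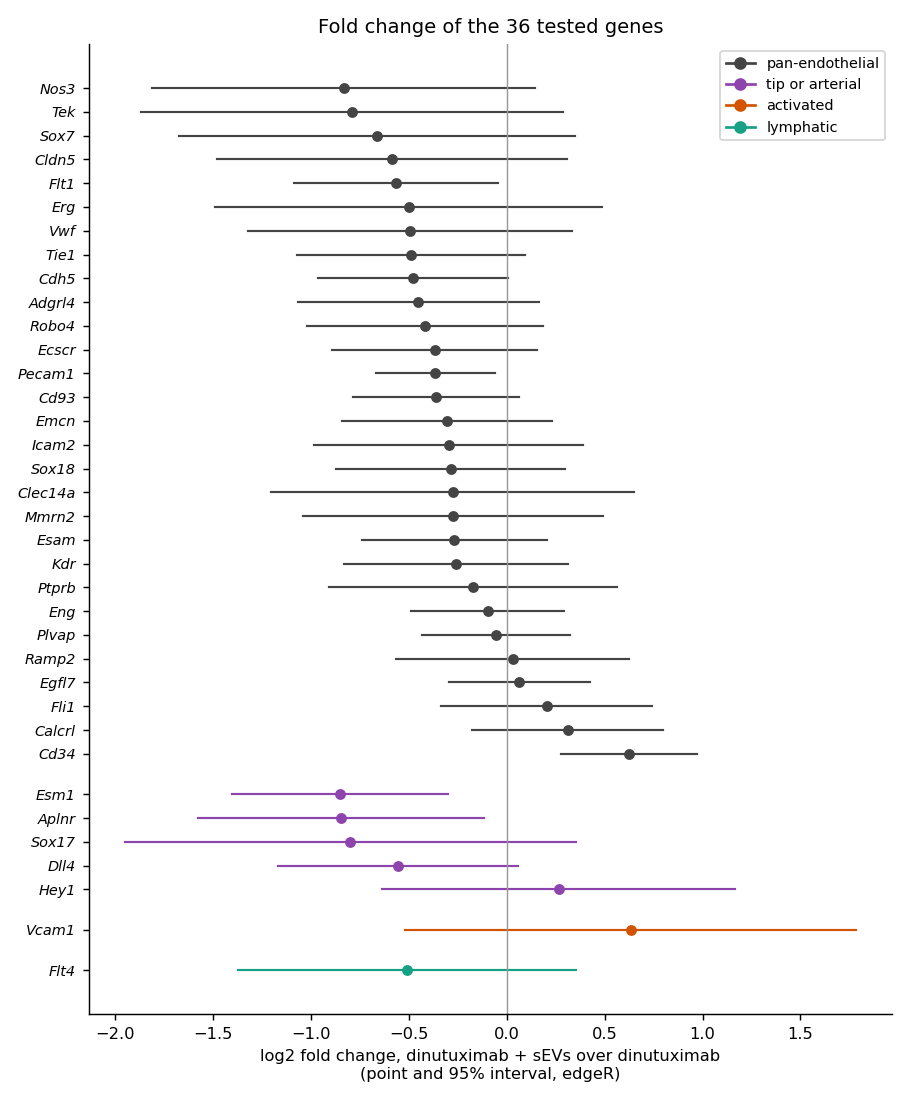
Log2 fold change of the sEV group over the dinutuximab group for each of the 36 tested members, with lines for the 95% interval of edgeR's fit, coloured by class. Points lie between -0.85 for Aplnr and Esm1 and 0.63 for Cd34 and Vcam1, 29 of them below 0, and none was called.

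The tip or arterial genes had the most negative median of the classes that hold more than 1 tested gene, at -0.80 over 5 tested genes. In 4 of the 5 both sEV tumours lay below, where 16.5% of all genes did so. Sox17, 1 of these 4, had only 8 to 19 counts a library. Esm1, a proteoglycan secreted by tip cells in response to Vegfa, had 10.8 and 8.24 CPM in sEV tumours and 20.5 and 13.8 CPM in dinutuximab tumours. The mean was 9.52 ± 1.81 CPM in sEV tumours and 17.2 ± 4.73 CPM in dinutuximab tumours (SD, n = 2 each), without overlap. Its log2 fold change was -0.85 ± 0.24 with a 95% interval of -1.40 to -0.30 and an adjusted p of 0.649. In Esm1 dinutuximab tumour 3 was the higher of its pair, unlike in most members, and leaving out each tumour in turn kept the fold change between -1.11 and -0.54. Esm1 lies at chr13:113209659-113218098 on the plus strand of GRCm38, where the antisense gene Gzmk overlaps it.

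Aplnr, the receptor for apelin, had 1.60 and 1.80 CPM in sEV tumours and 2.69 and 3.44 CPM in dinutuximab tumours. The log2 fold change was -0.85 ± 0.32, with a 95% interval of -1.57 to -0.12 and an adjusted p of 0.832. Dll4, the Notch ligand of tip cells, had 5.04 and 5.96 CPM in sEV tumours and 6.47 and 9.70 CPM in dinutuximab tumours (log2 fold change -0.55 ± 0.27, adjusted p = 0.887), and -0.23 without dinutuximab tumour 4. Sox17, an arterial transcription factor, was near the lower limit, at 0.305 and 0.450 CPM in sEV tumours and 0.545 and 0.777 CPM in dinutuximab tumours. Hey1, a target of Notch, overlapped at 1.34 and 1.45 CPM in sEV tumours and 0.896 and 1.43 CPM in dinutuximab tumours. Gja5, the arterial gap-junction connexin 40, had 5 and 5 counts in sEV tumours and 4 and 8 counts in dinutuximab tumours, too few to test.

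Of the activated genes, Vcam1, which binds leukocyte integrins and is also made by stromal cells and macrophages, had 6.60 and 23.4 CPM in sEV tumours and 7.13 and 12.3 CPM in dinutuximab tumours. The sEV tumours were the lowest and the highest of the 4. The log2 fold change was 0.63 ± 0.50 (adjusted p = 0.909), -0.56 without sEV tumour 4 and 1.26 without sEV tumour 3. T and NK cell markers, 10 genes, also differed within the sEV group, at 5.31 and 14.1 CPM in sEV tumours and 6.5 and 8.31 CPM in dinutuximab tumours, in the same order of tumours as Vcam1. Their part in the Vcam1 values was not tested. E-selectin, Sele, had 2 and 2 counts in sEV tumours and 1 and 2 counts in dinutuximab tumours. P-selectin, Selp, which platelets also make, had 8 and 5 counts in sEV tumours and 3 and 1 counts in dinutuximab tumours. Differences in either selectin were not detectable at this depth.

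The lymphatic label was not borne out by the data. Prox1, which defines lymphatic endothelium, had 0 and 0 counts in sEV tumours and 0 and 1 counts in dinutuximab tumours. A count of 0 allows up to 0.115 and 0.104 CPM in the sEV tumours and 0.117 CPM in dinutuximab tumour 3, for counting error only. Flt4, a receptor for Vegfc and Vegfd that sprouting blood vessels also make, had 1.34 and 2.01 CPM in sEV tumours and 1.87 and 2.91 CPM in dinutuximab tumours, with overlap. Lyve1, a hyaluronan receptor of lymphatic vessels and of some macrophages, had 128 and 38.5 CPM in sEV tumours and 46.3 and 28.7 CPM in dinutuximab tumours, so sEV tumour 3 alone was high.

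Blood cells share some of these genes. The 15 tested members also made by leukocytes, platelets or their progenitors had 10 negative fold changes and a median of -0.28, and the 21 others had 19 and a median of -0.48. Macrophage markers (10) summed to 2171 and 2245 CPM in sEV tumours and 1874 and 1983 CPM in dinutuximab tumours, with 9 of 10 positive. Red blood cell markers (6) summed to 70.8 and 43.3 CPM in sEV tumours and 35.1 and 21.3 CPM in dinutuximab tumours. Of the 10 platelet and megakaryocyte markers, which summed to 233 and 187 CPM in sEV tumours and 148 and 136 CPM in dinutuximab tumours, Gp1ba and Gp6 were at 0. Itgb3, an integrin that other cells make as well, carried most of that sum. The part of blood cells in the member values was not tested.

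Levels were also set over the geometric mean of the 6 markers in the same tumour. Because that mean was lower in both sEV tumours, dividing by it raises every gene there, so only differences between members can be read from this scale. Aplnr was 0.18 and 0.208 times the marker mean in sEV tumours and 0.274 and 0.255 times in dinutuximab tumours, still separate. Esm1 overlapped, at 1.21 and 0.952 times in sEV tumours and 2.09 and 1.03 times in dinutuximab tumours. Dll4 overlapped as well, at 0.567 and 0.688 times against 0.660 and 0.719 times. Cd34 was 6.38 and 7.48 times the marker mean in sEV tumours and 3.67 and 3.18 times in dinutuximab tumours. Plvap, whose CPM overlapped, was 3.43 and 2.99 times in sEV tumours and 2.71 and 2.37 times in dinutuximab tumours. This scale was chosen after the values had been seen and carries no test.

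**Figure D4:**
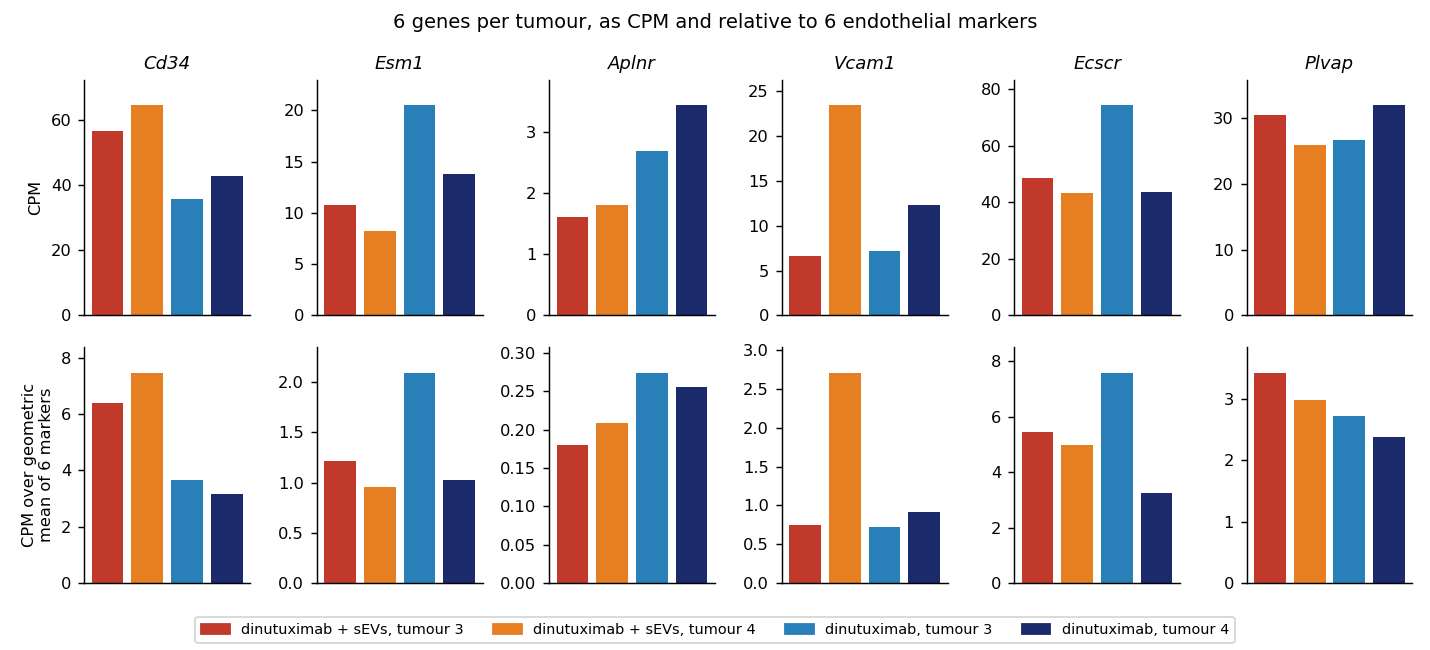
Levels of Cd34, Esm1, Aplnr, Vcam1, Ecscr and Plvap as 1 bar a tumour, in CPM (upper row) and over the geometric mean of 6 endothelial markers (lower row), with sEV tumours left of dinutuximab tumours. In the lower row Cd34 lies between 6.38 and 7.48 in the sEV tumours and between 3.18 and 3.67 in the dinutuximab tumours, and Esm1 overlaps.

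Ligands that act on these receptors were listed as 22 genes, of which 17 were tested. None was called (adjusted p at least 0.463), and 12 fold changes were negative, with a median of -0.48. In 9 of the 17 both sEV tumours lay below, where 16.5% of all genes did. In 3 both lay above, where 18.1% of all genes did. Vegfa, the growth factor for Kdr and Flt1, had 98.5 and 126 CPM in sEV tumours and 156 and 157 CPM in dinutuximab tumours (log2 fold change -0.48 ± 0.15, adjusted p = 0.726). Angpt2, the angiopoietin made by sprouting endothelium, had 13.0 and 12.4 CPM in sEV tumours and 27.4 and 19.5 CPM in dinutuximab tumours (log2 fold change -0.88 ± 0.20, adjusted p = 0.463). Apln, the ligand of Aplnr, had 14.9 and 7.62 CPM in sEV tumours and 21.5 and 24.3 CPM in dinutuximab tumours (log2 fold change -1.02 ± 0.28, adjusted p = 0.642). These 3 ligands were lower in both sEV tumours, as were the receptors Flt1, Tek and Aplnr, whereas Kdr, the main receptor for Vegfa, overlapped. Other pairs did not run together. Adm, adrenomedullin, had 2.33 and 1.35 CPM in sEV tumours and 6.23 and 2.78 CPM in dinutuximab tumours. It was lower in both sEV tumours, whereas its receptor gene Calcrl was higher. Vegfd had 11.4 and 8.87 CPM in sEV tumours and 7.60 and 6.38 CPM in dinutuximab tumours, while its receptor Flt4 overlapped. Pdgfb, which endothelium secretes to recruit pericytes, had 6.15 and 9.91 CPM in sEV tumours and 11.8 and 13.7 CPM in dinutuximab tumours. Sema3a, a repulsive guidance ligand, ran the other way, at 239 and 147 CPM in sEV tumours and 132 and 134 CPM in dinutuximab tumours.

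Hypoxia genes, induced like Vegfa when oxygen is low, summed over 13 genes to 4878 and 4759 CPM in sEV tumours and 6362 and 5238 CPM in dinutuximab tumours. Their fold changes were negative in 11 of 13, with a median of -0.56. Dinutuximab tumour 3 was highest in this sum, as it was in the tip or arterial sum (31.3 against 29.5 CPM in dinutuximab tumour 4). Esm1 alone carried that order, at 20.5 CPM in dinutuximab tumour 3 and 13.8 CPM in dinutuximab tumour 4. Aplnr, Dll4, Hey1, Gja5 and Sox17 were each higher in dinutuximab tumour 4 than in dinutuximab tumour 3. The pan-endothelial sum was also highest in dinutuximab tumour 4 (455 against 412 CPM in dinutuximab tumour 3). Genes of the early stress response (immediate early and heat shock), which handling of tissue can raise, summed over 14 genes to 713 and 769 CPM in sEV tumours and 975 and 865 CPM in dinutuximab tumours. The gene models to which ribosomal RNA reads map held 4.86% and 4.14% of the counts of sEV libraries and 5.80% and 6.06% of dinutuximab libraries. The part of these in the endothelial values was not tested.

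A wider list of 60 endothelial genes, 54 of them tested, had 28 negative and 26 positive fold changes and a median of -0.01. The list includes genes that other cells also make, such as Aqp1 and Lyve1, so that median does not describe endothelium alone. Angpt2 stands both in this list and among the ligands. In 13 of the 54 both sEV tumours lay below, where 16.5% of all genes did, and in 5 both lay above, where 18.1% of all genes did. None was called. Mcam, an adhesion molecule of endothelium and pericytes, had 17.9 and 16.2 CPM in sEV tumours and 25.9 and 36.3 CPM in dinutuximab tumours (log2 fold change -0.86 ± 0.19, adjusted p = 0.463). Nrp2, a co-receptor for Vegfc, had 17.1 and 18.9 CPM in sEV tumours and 26.9 and 22.8 CPM in dinutuximab tumours. Cd36, a fatty acid and thrombospondin receptor, lay above, at 23.4 and 23.7 CPM in sEV tumours and 16.5 and 17.9 CPM in dinutuximab tumours. The list was led in level by Aqp1, a water channel that other cells also make, at 897 and 490 CPM in sEV tumours and 501 and 498 CPM in dinutuximab tumours, and by Podxl, a sialomucin, at 329 and 282 CPM against 265 and 324 CPM.

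Pericytes and smooth muscle cells wrap the vessels. Of their 13 markers 12 were tested, all 12 fold changes were negative with a median of -0.74, and 0 were called. Both sEV tumours lay below in 6 of the 12, where 16.5% of all genes did so. Their summed level was 77.7 and 61.8 CPM in sEV tumours and 122 and 125 CPM in dinutuximab tumours. The sums of the dinutuximab tumours were close, but their genes were not: Acta2, smooth muscle actin, had 5.12 and 4.19 CPM in sEV tumours and 27.7 and 10.6 CPM in dinutuximab tumours, while Abcc9, a channel subunit of pericytes, had 5.95 and 3.36 CPM in sEV tumours and 3.19 and 8.47 CPM in dinutuximab tumours. Cnn1, a smooth muscle protein, was at 0 in all 4.

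**Figure D5:**
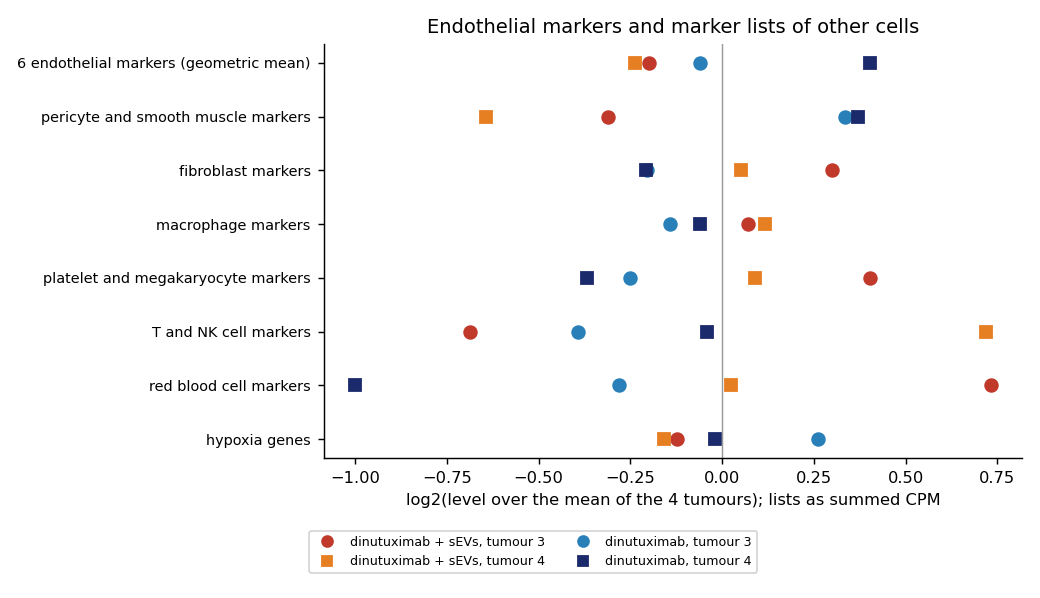
Level of the 6 endothelial markers (geometric mean) and of marker lists of other cells and hypoxia genes (summed CPM) in each tumour, as log2 over the mean of the 4 tumours, with 1 point a tumour. The sum of pericyte and smooth muscle markers is lower in both sEV tumours (77.7 and 61.8 against 122 and 125 CPM). The sums of fibroblast, macrophage, platelet and red blood cell markers are higher in both. Of the 10 fibroblast markers 5 had negative fold changes, and Dcn and Col3a1 carried most of that sum. Itgb3 carried most of the platelet sum.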

How the data were processed

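Messenger RNA was sequenced from 4 flash-frozen tumours, 2 a group, with a stranded kit on 2 lanes each, according to the labels' protocols. The authors deposited whole-number counts for Ensembl gene IDs, equal in the series table and the sample tables over all 173728 values. STAR, SAMtools, HTSeq and mm10 are named in the submitters' processing notes; versions, annotation release and strand setting are not given in the sources used here. GENCODE M21 gave symbols to 42548 IDs and left 884 unnamed.

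The deposited counts were fitted in R 4.3.3 with edgeR 4.0.16 (filterByExpr, TMM factors 0.976 to 1.02, quasi-likelihood F test, group as the only term, common biological coefficient of variation 0.150), with Benjamini-Hochberg adjustment over all 13823 genes tested. DESeq2 1.42.0 and limma 3.58.1 (voom) were alternatives, with other scalings, filters, a replicate block and each tumour left out. CPM per kb used the GENCODE exon union. Intervals cover 95%. The code was tested on simulated counts.

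The members and lists were chosen with earlier results of these data known. Per-tumour values were planned for the 6 members a class of highest level or lowest p, 13 set members, and 3 and 3 genes of each other list. Other members and genes were named after their values were seen. Tumour numbers 3 and 4 are shared between groups without a stated meaning; the correlation of paired deviations over genes was 0.117 for 2 pairs, too few to take them as pairs. The spread between 2 tumours a group includes biological and technical differences.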

Additional observations from a re-analysis of the deposited data

How the results depend on the processing

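None of the 13823 genes was called with the RLE, upper-quartile or total-count scaling, the 1 CPM filter, robust dispersions, the tables per sample, the library size without mitochondrial and ribosomal RNA read genes, or limma-voom. Without a filter 107 genes were called higher and 155 lower, by DESeq2 17 and 38, and with a replicate block 21 and 46. Leaving out each tumour gave 0 to 160 higher and 0 to 156 lower. Among members, Cd34 was called higher without a filter (1 higher, adjusted p = 0.0187) and with the replicate block (1 higher, adjusted p = 0.0485); Esm1 was called lower without a filter (1 lower, adjusted p = 0.0112). Leaving out each tumour gave 0 to 1 called higher and 0 to 1 lower. Those calls were Vcam1 (log2 fold change 1.26) and Esm1 (-1.07), both without sEV tumour 3. In that fit each gene's spread was drawn wholly from a trend over all genes, whereas the main fit also used the gene's own values. The same held without a filter and without sEV tumour 4.

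The median fold change over tested members lay between -0.51 and -0.12 when each tumour was left out, for pan-endothelial genes between -0.50 and -0.076, and for tip or arterial genes between -0.82 and -0.52; without a filter the last was -0.68. The mean pan-endothelial level difference was -0.20 and lay between -0.35 and -0.04. Leaving out 1 tumour turned the direction of 10 of the 36 tested members. Over the 4 omissions the ranges were -0.95 to 0.14 for Erg, -0.46 to 0.18 for Ptprb, -0.65 to 0.23 for Mmrn2, -0.23 to 0.34 for Ramp2, -0.50 to 0.030 for Kdr, -0.19 to 0.080 for Plvap, -0.035 to 0.15 for Egfl7, -0.70 to 0.066 for Ecscr, -0.038 to 0.64 for Hey1 and -0.56 to 1.26 for Vcam1. A scale over the 6 endothelial markers was chosen after seeing the data, and it raises every gene in the sEV tumours. On it the log2 difference between groups turned for Pecam1 (0.02), Kdr (0.15), Plvap (0.33), Ecscr (0.07) and Cd93 (0.05) among the 21 members followed through every setting. Pecam1 and Kdr are themselves among the 6 markers. The differences of the 6 markers balance out by construction, so some of the 6 had to turn. No direction turned among those 21 under the other scalings, filters and tools, with 19 of them tested under the 1 CPM filter. The cause was not tested. Having 2 tumours a group, and 10 to 17 counts for genes such as Tek, limits what can be called.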
